A study of Mus musculus with 8 samples.

Results

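The alpha, beta and gamma protocadherin gene clusters of the mouse lie side by side on chromosome 18. They were examined here as the stretch chr18:37080001-38010000 of the mouse genome build mm9 (930 kb). All rows of the deposited signal table that overlap this stretch were taken, 91 of 253926 rows. Of these, 89 were 10 kb bins that passed the filter on low signal and were used, out of 245206 used bins in the genome. The 2 remaining rows were wider and stood outside the main values. The bins hold signal from chromatin immunoprecipitation with an HA antibody followed by sequencing (ChIP-seq). The cells were C3H10T1/2, an established mouse embryo line with mesenchymal progenitor properties. The 4 cell lines stably expressed a FLAG-HA-tagged histone H3, namely wild-type H3.1 (H3.1WT), H3.1K36M, wild-type H3.3 (H3.3WT) or H3.3K36M, in which lysine 36 of the histone tail is replaced by methionine. All lines grew in the same serum medium, and the labels name no drug treatment and no deletion of the cells' own histone genes. The promoter of the tagged histones, and whether a line was 1 clone, are not given in the sources used here. Each line gave 1 HA library, so differences between lines have no check by replicates.

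Clustered protocadherins are cadherin-like adhesion proteins of the cell surface. They are best known in neurons, where single cells choose different members from different promoters and so gain a surface identity used in self-recognition. In the alpha and gamma clusters each variable first exon is spliced to constant exons at the end of its cluster, whereas beta genes are single-exon genes with no constant exons. H3.1 is placed on chromatin chiefly as DNA is copied, whereas H3.3 can be placed at any time of the cell cycle, at active genes and enhancers and in some silent heterochromatin.

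In the RefSeq annotation of GRCm38.p6, which was used for names and order only, 14 alpha genes come first (Pcdha1 to Pcdha12, then the C-type genes Pcdhac1 and Pcdhac2). The 22 beta genes Pcdhb1 to Pcdhb22 follow, with no coding gene between alpha and beta. Slc25a2, a mitochondrial carrier gene, and Taf7, which encodes a subunit of the general transcription factor TFIID, lie between beta and gamma. The 22 gamma genes end with the C-type genes Pcdhgc3, Pcdhgc4 and Pcdhgc5. Zmat2 is the last coding gene before the clusters and Diaph1, a formin that nucleates actin filaments, the first after them. No annotation of mm9 was at hand, so single bins were not assigned to genes, exons or introns. The alpha part was taken as chr18:37080001-37350000, the beta part as chr18:37420001-37690000 and the gamma part as chr18:37820001-38010000, with edges from general knowledge of the locus rounded to 10 kb. They held 23, 27 and 19 used bins. The spacer between alpha and beta held 7, and the spacer between beta and gamma held 13.

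Signal is given as RPM, with reads divided by the library's total, per 10 kb bin. The 4 libraries held between 35487141 and 46749609 reads, and the median bin of the window held 111 reads in H3.1WT, 134 in H3.1K36M, 76 in H3.3WT and 90 in H3.3K36M. Inputs were not used here, so background and unequal pull-down cannot be told apart from histone placement. Protocadherin genes resemble one another in sequence, and the sources used here do not say how reads matching several copies were treated. Intervals in brackets are exact (Clopper-Pearson) 95% intervals on reads. Only counting error is covered, since reads carry no molecular identifiers and may repeat a molecule.

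The clusters formed a stretch of low tagged H3.3 between neighbours rich in H3.3. The median signal of the window was 1.63 RPM for H3.3WT, where the 1 Mb before it had 5.80 RPM and the 1 Mb after it 3.83 RPM. In H3.3K36M it was 2.33 RPM, where the same flanks had 6.51 and 5.14 RPM. The window therefore lay 3.55-fold and 2.34-fold below its flanks in H3.3WT, and 2.79-fold and 2.21-fold below them in H3.3K36M. H3.1 was lower in the window as well, but by less. Its medians were 3.14 RPM for H3.1WT and 3.23 RPM for H3.1K36M, against 5.24 and 4.82 RPM in the flank before and 3.85 and 4.08 RPM in the flank after. The chromosome 18 medians were 3.88 and 3.66 RPM for the WT and K36M lines of H3.1 and 2.54 and 3.16 RPM for those of H3.3, so the window was below its chromosome in every library.

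**Figure D1:**
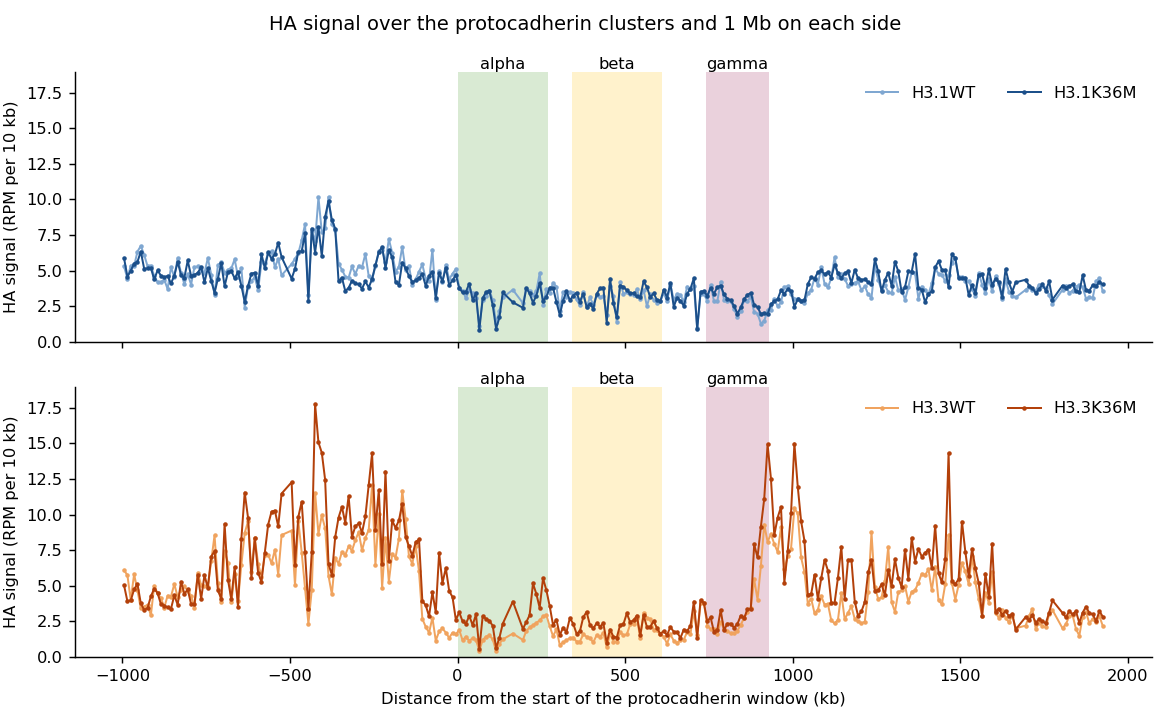
HA signal in RPM per 10 kb bin (vertical axis) against distance in kb from the start of the protocadherin window (horizontal axis), over the window and 1 Mb on each side. H3.1 lines are above and H3.3 lines below, points are bins joined by lines across bins not used, and shading marks the alpha, beta and gamma parts. The H3.3 lines run low across the clusters, with a median of 1.63 RPM for H3.3WT and 2.33 RPM for H3.3K36M, and rise to as much as 9.29 and 14.9 RPM at the end of the gamma part.

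Chromosome 18 was also divided into 93 consecutive windows of 930 kb, laid outwards from the protocadherin window. Of the 92 others, none had a lower median in H3.1WT, H3.1K36M or H3.3K36M, and 14 had a lower median in H3.3WT, with 76 higher. The margins were small. The lowest other medians were 3.23 RPM for H3.1WT, 3.24 RPM for H3.1K36M and 2.38 RPM for H3.3K36M. The clusters were thus at the low end in both H3.1 and H3.3. In H3.3 their rank was lower in the K36M line, but by size they lay further below the chromosome in the WT line, at 1.55-fold against 1.36-fold.

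**Figure D2:**
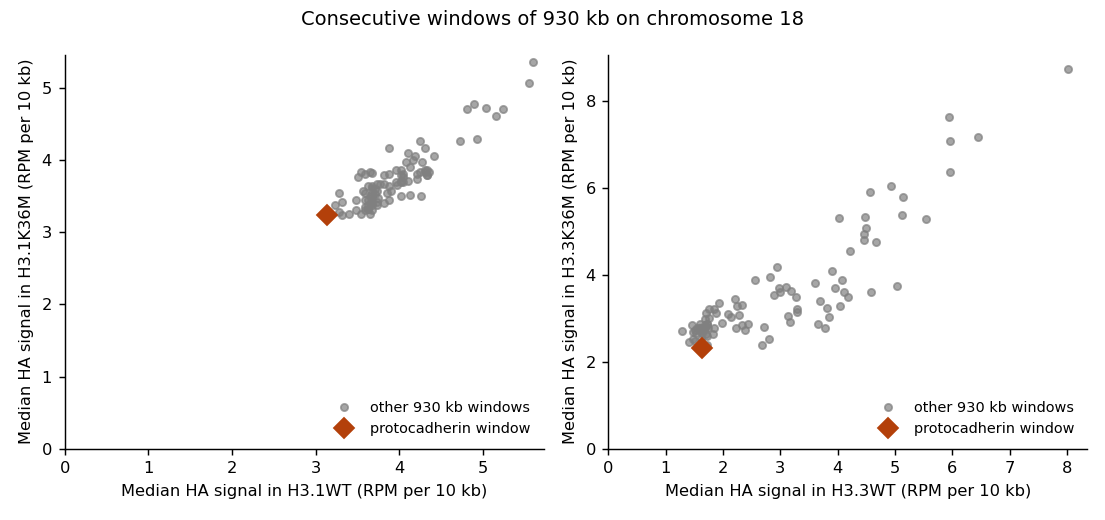
Median HA signal in RPM per 10 kb of consecutive 930 kb windows on chromosome 18, with the WT line on the horizontal and the K36M line on the vertical axis, for H3.1 (left) and H3.3 (right). Each grey point is 1 of the 92 other windows and the diamond is the protocadherin window. The diamond has the lowest median on both H3.1 axes and on the H3.3K36M axis, but 14 windows lie below it in H3.3WT.

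H3.3 had sharp steps in and around the low stretch, and at those borders H3.1 was near level or moved the opposite way. Edges were read as the largest step between the means of the 5 bins before and the 5 bins after a bin border, from 200 kb before the window to 200 kb after it. In H3.3WT the largest fall was between chr18:36970000 and chr18:36970001, from 7.42 to 2.07 RPM, and H3.3K36M went from 7.93 to 3.61 RPM there. This border lies 110 kb before the window. The largest H3.3K36M fall was on the other side, at chr18:38120001, from 10.95 to 4.83 RPM, 110 kb past the window. It is the far end of the H3.3-rich stretch that begins in the gamma part, and not an edge of the low stretch. At the border 110 kb before the window, H3.1WT was level at a ratio of 0.996, and H3.1K36M stood at 0.936. At chr18:38120001 both H3.1 lines rose. Wild-type H3.1 went from 2.99 to 4.15 RPM there, and its K36M form from 2.96 to 4.58 RPM. The largest rise was inside the gamma part in both H3.3 lines, at chr18:37960001, from 2.68 to 6.64 RPM for H3.3WT and from 2.93 to 10.02 RPM for H3.3K36M. H3.1 fell at that border, to 0.700 of its value in H3.1WT and 0.774 in H3.1K36M.

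H3.3 with and without K36M was compared to see whether its placement over the clusters depends on lysine 36. Over the window the H3.3K36M signal was 1.43-fold that of H3.3WT (1.39 to 1.47), and the median log2 ratio of bins, taken with 0.1 RPM added to each value, was 0.48 (SD 0.37 over bins). Of the 89 bins, 80 were higher in H3.3K36M, as were 6408 of the 8490 bins of chromosome 18 and 143170 of all 245206 bins. Chromosome 18 as a whole is high in this ratio, with a median of 0.36 against 0.10 over all bins, so that the window stood 0.12 above its chromosome. The flanks together had a median of 0.27, which puts the window 0.21 above them. With flanks of 0.5 Mb in place of 1 Mb, that difference was 0.05.

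Bins were called at a 2-fold difference, which sets a size and tests nothing. The window held 7 bins (7.87%) higher by this measure in the H3.3K36M line and 0 lower. The background was 2.94% higher and 1.81% lower over all bins, and 8.88% higher and 0.2% lower over chromosome 18. The share of higher bins was therefore near that of the chromosome. After subtracting the chromosome 18 median, 0 bins of the window passed in either direction, where 1.97% of chromosome 18 bins passed as higher and 1.81% as lower. H3.3WT is a term of the ratio, and bins low in it have high ratios: the chromosome 18 bins at or below that chromosome's median in H3.3WT had a median log2 ratio of 0.65, above the 0.48 of the window.

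Along the clusters the H3.3K36M ratio was higher in alpha than in beta and gamma. The signal of the alpha part was 1.82-fold higher in H3.3K36M (1.71 to 1.94), with a median log2 ratio of 0.72 (SD 0.29 over bins). In the beta part it was 1.30-fold higher (1.22 to 1.38), with a median of 0.39 (SD 0.37), and in the gamma part 1.34-fold higher (1.28 to 1.41), with a median of 0.32 (SD 0.27). Relative to the chromosome 18 median these are 0.36 in alpha, 0.03 in beta and -0.04 in gamma. The alpha part lay above beta and gamma by about the spread of its bins, and its reads interval did not overlap theirs. Beta and gamma differed in their medians by 0.07, within the spread of bins, and their fold intervals overlapped. Counted by bins, 22 of 23 alpha bins, 15 of 27 beta bins and 8 of 19 gamma bins were above the chromosome 18 median. By definition, about equal shares of all the chromosome's bins lie above and below it. Of the 4261 chromosome 18 bins at or below its H3.3WT median, 3339 (78.4%) were above it. The alpha part is poor in H3.3WT too, at a median of 1.42 RPM.

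**Figure D3:**
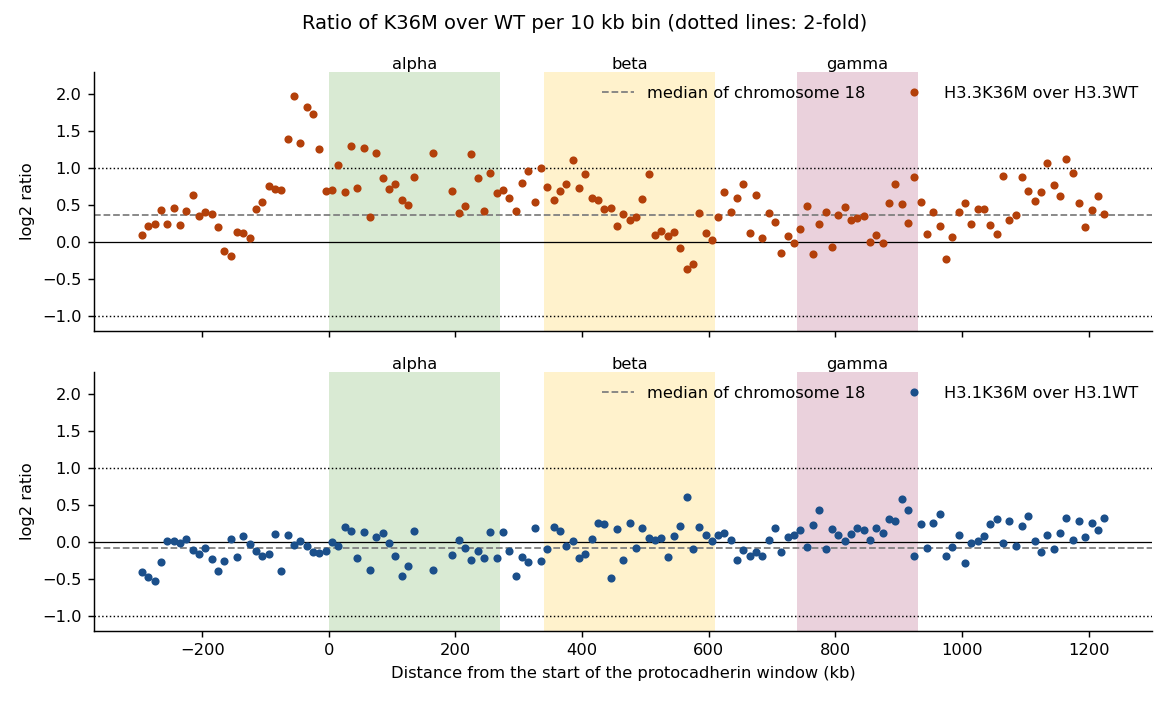
log2 ratio of K36M over WT per 10 kb bin (vertical axis) against distance in kb from the start of the protocadherin window, for H3.3 (top) and H3.1 (bottom). Each point is a bin, dashed lines are chromosome 18 medians (0.36 and -0.08), dotted lines mark 2-fold and shading marks the parts. In H3.3 the points are high in the last 110 kb before the window and in alpha and cross below the chromosome's median within beta. H3.1 stays within 2-fold throughout.

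In the alpha part all 23 bins were higher in H3.3K36M, from a log2 ratio of 0.34 to 1.29, as were 4080 of the 4261 chromosome 18 bins at or below the H3.3WT median. The highest ratio was at chr18:37110001-37120000, with 1.12 RPM for H3.3WT and 2.87 RPM for H3.3K36M, a 2.57-fold difference (1.83 to 3.65). In that bin the H3.1 lines held 3.65 RPM (WT) and 4.07 RPM (K36M). The alpha part held 6 of the 7 bins past 2-fold, each standing alone. This is 26.1% of its bins, beside 8.88% of chromosome 18 bins and 16.9% of that chromosome's H3.3-poorer bins, whose median ratio of 0.65 is near the 0.72 of alpha. They included chr18:37130001-37140000 at 2.52-fold (1.81 to 3.54) and chr18:37300001-37310000 at 2.33-fold (1.83 to 2.98). The lowest signal was at chr18:37140001-37150000 and chr18:37190001-37200000, where all 4 libraries fell together. In the first, H3.1 stood at 1.13 RPM (WT) and 0.844 RPM (K36M) and H3.3 at 0.430 RPM (WT) and 0.570 RPM (K36M). The wider rows left out, chr18:37220001-37240000 and chr18:37250001-37270000, both belong to the alpha part. Per 10 kb they held 1.34 and 1.48 RPM for H3.3WT and 2.15 and 2.63 RPM for H3.3K36M.

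H3.3 was higher at the end of the alpha part, a stretch chosen after its values were seen. Over chr18:37300001-37360000, whose last bin falls in the spacer, the median was 2.47 RPM for H3.3WT and 4.56 RPM for H3.3K36M. The earlier 220 kb of the alpha part had 1.23 and 2.46 RPM. H3.1WT had 3.495 RPM at the end and 3.16 RPM before, and H3.1K36M had 3.19 and 3.40 RPM. H3.3 thus rose 2.02-fold in the WT line and 1.85-fold in the K36M line while H3.1 moved by less than 1.11-fold. The ratio between the H3.3 lines was alike on both sides, at 1.78-fold (1.61 to 1.96) at the end and 1.84-fold (1.70 to 1.98) before it. In the annotation the alpha cluster ends with the C-type gene Pcdhac2 and the constant exons shared by all alpha genes, but their place on these bins was not determined.

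Between alpha and beta, H3.3WT fell again to a median of 1.31 RPM and H3.3K36M to 2.23 RPM. The spacer kept the alpha part's ratio, with a median of 0.70 and a 1.67-fold difference (1.48 to 1.89). Its bins ranged from 0.42 to 0.998 in log2 ratio, so none passed 2-fold with 0.1 RPM added. By reads alone 2 of its bins were past it, chr18:37390001-37400000 at 2.03-fold (1.39 to 2.97) and chr18:37410001-37420000 at 2.07-fold (1.499 to 2.89).

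Within the beta part the ratio changed along the cluster. In the first 170 kb, chr18:37420001-37590000, H3.3K36M was 1.59-fold higher (1.46 to 1.72), with medians of 1.40 RPM for H3.3WT and 2.23 RPM for H3.3K36M. Over the last 100 kb, chr18:37590001-37690000, the lines held 2.29 and 2.28 RPM, a 1.01-fold ratio (0.923 to 1.11). H3.3WT was thus 1.64-fold higher in the later stretch and H3.3K36M 1.02-fold. H3.1WT moved to 0.978 and H3.1K36M to 0.982 of the earlier level. This division of the beta part was set after the values were seen, and its intervals do not allow for that. The bin past 2-fold was chr18:37460001-37470000, with 1.42 RPM for H3.3WT and 3.16 RPM for H3.3K36M (2.23-fold, 1.64 to 3.05). At the other end of the range was chr18:37640001-37650000, where H3.3WT held 2.73 RPM and H3.3K36M 2.10 RPM. In that bin H3.1K36M was the higher of the H3.1 lines, with 3.83 against 2.49 RPM, the highest H3.1 ratio of the window at a log2 value of 0.60.

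The spacer between beta and gamma held the lowest H3.3K36M median of any part, 1.81 RPM, beside 1.505 RPM for H3.3WT. Its last 40 kb, chr18:37780001-37820000, stood out in both H3.3 lines, with medians of 3.48 RPM for H3.3WT and 3.83 RPM for H3.3K36M, where the 90 kb before had 1.20 and 1.81 RPM. H3.1 changed little between these stretches, with 3.35 and 3.37 RPM for H3.1WT and 3.54 and 3.11 RPM for H3.1K36M. The lines differed by 1.06-fold (0.938 to 1.20) in the 40 kb and by 1.37-fold (1.22 to 1.54) before them. In the 40 kb, H3.1 dropped in a single bin, chr18:37790001-37800000, to 0.962 RPM for H3.1WT and 0.868 RPM for H3.1K36M, and H3.3WT and H3.3K36M fell there to 1.505 and 1.35 RPM. Slc25a2 and Taf7 are the coding genes between beta and gamma in the annotation, but their place within the spacer was not determined. The values of these 40 kb were known when they were chosen.

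The gamma part was divided at chr18:37960001, the largest H3.3 rise, so that the H3.3 difference between its stretches follows from the choice. Its first 140 kb had medians of 1.97 RPM for H3.3WT and 2.41 RPM for H3.3K36M, a 1.16-fold difference (1.07 to 1.25). In the last 50 kb, chr18:37960001-38010000, H3.3WT ranged from 4.02 to 9.29 RPM and H3.3K36M from 6.99 to 14.9 RPM, and the K36M line was 1.51-fold higher (1.41 to 1.61). H3.1 was lower at the end, at a median of 1.98 RPM for H3.1WT and 2.02 RPM for H3.1K36M against 2.89 and 3.27 RPM before. The highest H3.3K36M signal of the window was in its last bin, chr18:38000001-38010000, with 14.9 RPM beside 8.08 RPM in the WT line. The H3.1 lines held 2.21 RPM (WT) and 1.93 RPM (K36M) there. High H3.3 went on past the window for 110 kb, at medians of 7.61 RPM for H3.3WT and 9.79 RPM for H3.3K36M. The gamma cluster ends with the C-type genes and the shared constant exons, and Diaph1 follows, so this end cannot be given to the gamma genes alone. Without it the median log2 ratio of K36M over WT for H3.3 in the window was still 0.48.

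**Figure D4:**
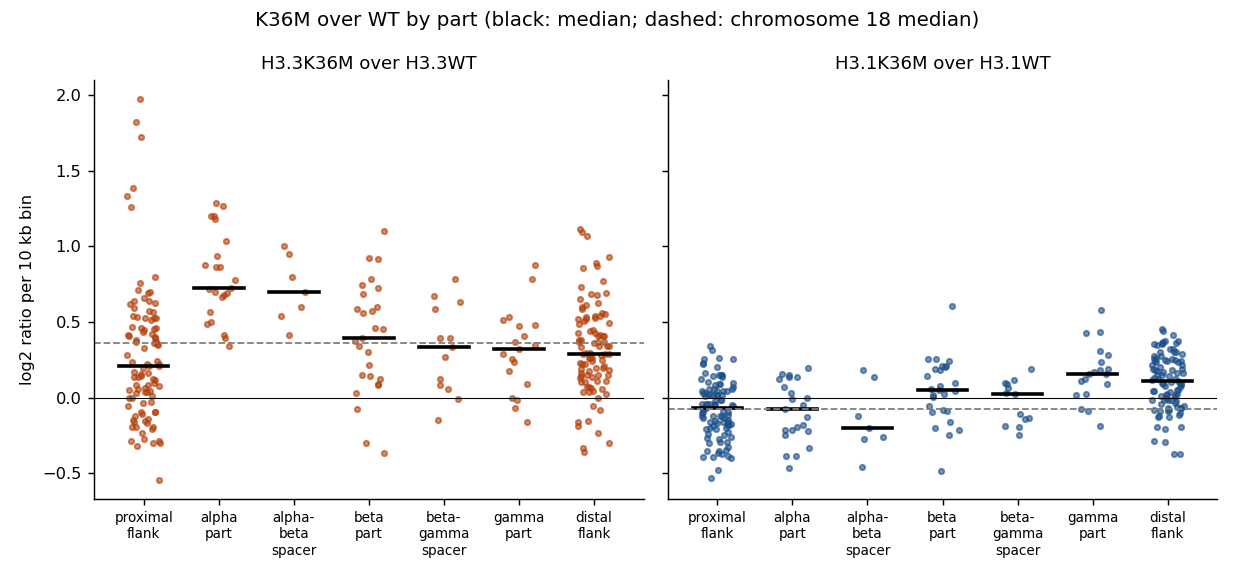
log2 ratio of K36M over WT per 10 kb bin (vertical axis) by part and flank in chromosome order, for H3.3 (left) and H3.1 (right). Points are bins, scattered sideways for visibility, black bars are medians and dashed lines are chromosome 18 medians. In H3.3 the medians go from 0.72 in alpha and 0.70 in the spacer to 0.39 in beta, 0.33 and 0.32, and in H3.1 the gamma part is highest at 0.16.

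The highest H3.3K36M ratio of the window and its flanks lay just before the window. In the 60 kb chr18:37010001-37070000, H3.3K36M averaged 5.12 RPM and H3.3WT 1.61 RPM, a 3.18-fold difference (2.85 to 3.55), beside H3.1 at 4.45 RPM (WT) and 4.28 RPM (K36M). The highest bin was chr18:37020001-37030000, with 7.30 RPM for H3.3K36M and 1.78 RPM for H3.3WT (4.10-fold, 3.20 to 5.30). These 6 bins were the only bins of the flank before the window past 2-fold, 6.12% of its bins beside 8.88% of chromosome 18 bins. They belong to the 110 kb between the fall in H3.3 and the start of the alpha part, over which the median log2 ratio was 1.26. These bins were picked by the reads that also give their folds, which favours extreme values.

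Between the H3.1 lines the clusters differed little, with 0 bins past 2-fold in either direction. Over all bins 0.0122% were higher and 0.064% lower, and over chromosome 18 the shares were 0.0118% and 0%, before and after subtracting its median. The window's signal was 1.01-fold in H3.1K36M (0.982 to 1.04), and its median log2 ratio was 0.03 (SD 0.22 over bins), 0.10 above the chromosome 18 median of -0.08. The flanks together had 0.02, with -0.07 in the flank before the window and 0.11 in the flank after it. By part, the H3.1 ratio had medians of -0.08 in alpha, 0.05 in beta and 0.16 in gamma, so alpha, highest in H3.3, was lowest of the 3 in H3.1. The gamma part was 1.11-fold higher in H3.1K36M (1.04 to 1.18), and 17 of its 19 bins were above the chromosome 18 median. In alpha the H3.1 lines differed by 0.954-fold (0.904 to 1.01) and in beta by 1.04-fold (0.990 to 1.09). Alpha minus gamma was -0.24, about the size of the SD over the window's bins. Ratios in H3.3 and in H3.1 share no library, and across the 89 bins their Pearson's r was -0.25 (Spearman's rho -0.26), a description of bins that lie next to each other and are not independent.

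In WT lines H3.3 was lower than H3.1 across most of the clusters. The window's signal was 1.51-fold lower in H3.3WT than in H3.1WT (1.47 to 1.56), and the median log2 ratio was -0.99, against -0.64 on chromosome 18 and 0.02 in the flanks. At least 2-fold lower in H3.3WT were 44 of 89 bins (49.4%), where the background was 16.8% of all bins and 34.4% of chromosome 18 bins. H3.3WT is a term of this ratio too. The chromosome 18 bins at or below that chromosome's median in H3.3WT had a median log2 ratio of -1.15, lower than the window. Of the 92 other windows of 930 kb, 30 had a lower median ratio and 62 a higher one. The 4 bins at least 2-fold higher (4.49%) were all in the gamma end, against 10.3% of all bins and 5.36% of chromosome 18 bins. Scaling on the median bin ratio lifted all bins by 0.41 at their median and turned the split to 8 lower and 5 higher. The window's median was then -0.58, and relative to all bins it was -0.56 with either scaling. After subtracting the chromosome 18 median, 2 bins were lower and 6 higher, beside 2.01% and 18.9% of chromosome 18 bins. The longest run of lower bins was chr18:37090001-37220000, in the alpha part, where means of 1.11 RPM for H3.3 and 2.86 RPM for H3.1 differed by 2.57-fold (2.34 to 2.82). A run of 90 kb filled the first portion of the spacer before gamma, chr18:37690001-37780000, at 2.57-fold (2.31 to 2.85). By part the lower bins were 15 in alpha, 15 in beta and 0 in gamma, with the others in the spacers.

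In K36M lines H3.3 and H3.1 were nearer to each other. H3.3K36M over H3.1K36M had a median log2 ratio of -0.38 in the window, -0.22 on chromosome 18, -0.43 in its H3.3-poorer bins and 0.20 in the flanks. Only 4 bins (4.49%) were at least 2-fold lower and 5 (5.62%) at least 2-fold higher, against 3.29% and 8.18% of all bins and 1.17% and 8.94% of chromosome 18 bins. The scaling raised the median of all bins by 0.28 and gave 0 lower and 7 higher. Subtracting the chromosome 18 median also left 0 lower and 7 higher, beside 0.177% and 12.8% of chromosome 18 bins. By part the medians were -0.27 in alpha, -0.52 in beta and -0.13 in gamma, whereas in WT lines they were -1.14, -1.08 and -0.10. Alpha and beta were thus close in the WT lines and stood apart by 0.25 in the K36M lines, less than the SD over bins of 0.46 in alpha and 0.33 in beta. At the gamma end H3.3 exceeded H3.1 in both states, by 3.69-fold in WT (3.27 to 4.17) and by 4.59-fold in K36M (4.14 to 5.10). The start of that stretch was set at the largest H3.3 rise, and these intervals do not allow for that choice.

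**Figure D5:**
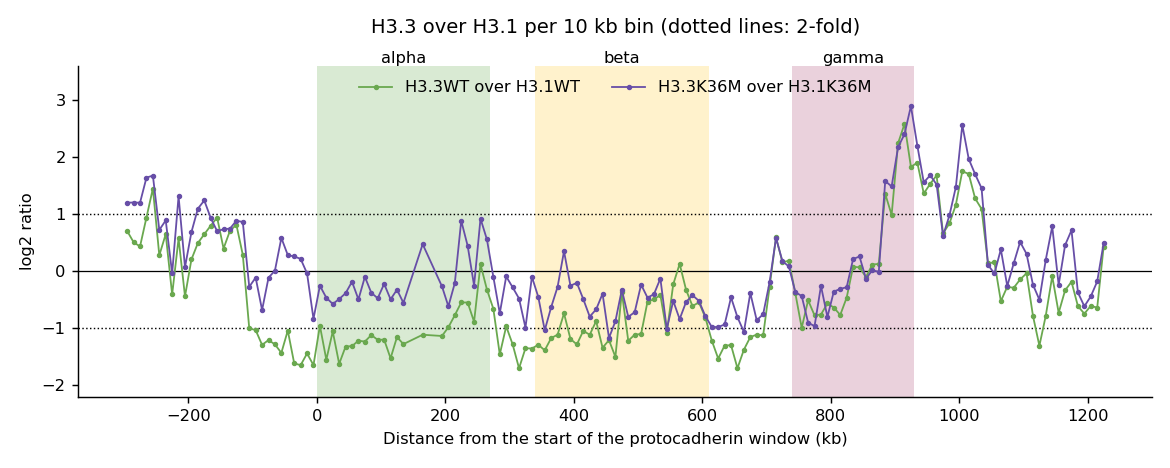
log2 ratio of H3.3 over H3.1 per 10 kb bin (vertical axis) against distance in kb from the start of the protocadherin window, in WT and in K36M lines. Points are bins joined by lines, dotted lines mark 2-fold and shading marks the parts. The WT line runs near -1 over alpha and much of beta and the K36M line runs above it there, and both rise past 2-fold at the end of gamma, to 2.58 and 2.89.

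The libraries of a variant resembled each other bin by bin within the window. Over the 89 bins, Pearson's r of log2 signal was 0.87 between the H3.1 lines and 0.87 between the H3.3 lines. It was 0.05 between H3.1WT and H3.3WT and 0.26 between H3.1K36M and H3.3K36M. Without the gamma end, where H3.3 is high and H3.1 low, these last values were 0.46 and 0.61. The r was then 0.89 between the H3.1 lines and 0.77 between the H3.3 lines. Over chromosome 18 the H3.1 lines had 0.87 and the H3.3 lines 0.83, so their resemblance was not particular to the window. Between variants chromosome 18 had 0.37 in WT lines and 0.39 in K36M lines. All are descriptions across neighbouring bins that share depth and base composition.

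H3.3K36M peaks, given by the authors as positions with no score, fell in the gamma part alone within the window. In all it overlapped 2 of the 339 peaks of chromosome 18. One was chr18:37993401-37996000 (2.6 kb), in a bin where H3.3 held 9.29 RPM (WT) and 11.1 RPM (K36M) and H3.1 held 1.47 RPM (WT) and 2.02 RPM (K36M). The other, chr18:38005801-38017600 (11.8 kb), had 4.2 kb inside the window and reached into the flank. The window thus held 2.15 peaks per Mb, its flanks 10.0 per Mb and chromosome 18 3.73 per Mb, and peaks covered 0.731% of the window, 3.38% of the flanks and 1.34% of the chromosome. No peak overlapped alpha, beta or either spacer. Between the last peak before the clusters, chr18:36958401-36961200, and the first in gamma lay 1032.2 kb without a peak. Of the 338 gaps between peaks on chromosome 18, 16 were longer and the median was 76.8 kb. The 60 kb of highest H3.3K36M ratio lay inside this gap. None of the authors' 73 H3.1K36M peaks lay on chromosome 18.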

How the data were processed

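The authors deposited a binned RPM table of the 4 HA libraries and the peak positions of both K36M lines. Bowtie 1.0.0 and build mm9 are named, per the submitters' processing notes. Bin counting, duplicate handling and peak calling are not given in the sources used here. Dividing each deposited RPM column by its lowest nonzero value gave whole reads for 100% of values, with a tolerance of 0.01 read. Lines were taken from the genotype label, since titles of both H3.3 libraries begin with an H3.1 name. The protocol text names a Cbx2 antibody and the descriptions an HA antibody, and the descriptions were followed.

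Used bins were 10 kb wide, on chromosomes 1 to 19 and X, with a mean of at least 0.5 RPM. Ratios are log2 of RPM plus 0.1, which understates changes of low bins. No test was made, with 1 library per line. The window, parts and lists were chosen with earlier results of these data known. Named bins were the highest and lowest of each part in H3.3 signal and ratios, runs past 2-fold, and all peaks of the window, and stretches set later are said to be so. Coordinates are 1-based. Simulated reads with known changes were used to test the calculations, which ran in Python 3.11.15 with scipy 1.17.1, pandas 2.3.3 and numpy 2.4.6 (plots, matplotlib 3.10.9).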

Additional observations from a re-analysis of the deposited data

Results flagged for a closer look

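Of the window, its parts and its flanks, 2 stretches had ratios of K36M over WT in opposite directions in H3.3 and in H3.1, with both read intervals clear of 1. Chromosome 18 as a whole did so too, at 1.22-fold in H3.3 (1.219 to 1.225) and 0.941-fold in H3.1 (0.939 to 0.943), with medians of 0.36 and -0.077. The difference was not tested, since each line has 1 library. In the spacer between alpha and beta the median log2 ratio was 0.70 in H3.3, a 1.67-fold difference (1.48 to 1.89), and -0.20 in H3.1, a 0.909-fold difference (0.826 to 0.999). In the 1 Mb before the window it was 0.21 in H3.3, at 1.21-fold (1.19 to 1.23), and -0.069 in H3.1, at 0.946-fold (0.927 to 0.965). Relative to the chromosome 18 medians the spacer was at 0.34 and -0.13, and the 1 Mb before the window at -0.15 and 0.0075, so there the H3.3 direction turned.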

How the results depend on the processing

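No paired analysis was possible because each line has 1 library. With a pseudocount of 1 RPM the window's median log2 ratio was 0.33 for H3.3K36M over H3.3WT, -0.73 for H3.3WT over H3.1WT and -0.27 for H3.3K36M over H3.1K36M, and the parts of the first ratio were 0.52 (alpha), 0.24 (beta) and 0.24 (gamma). Scaling by the median of bin ratios gave 0.37, -0.58 and -0.11, with parts of 0.61, 0.27 and 0.20. Subtracting the chromosome 18 median gave 0.12, -0.35 and -0.16, and 0.10 for H3.1K36M over H3.1WT, with parts of 0.36, 0.031 and, reversed, -0.041. Only bins at or above the median signal, 14 of the window, gave 0.11 for H3.1K36M over H3.1WT and turned H3.3WT over H3.1WT to 0.14 and H3.3K36M over H3.1K36M to 0.50. That filter drops bins poor in H3.3. It left 1 beta bin at -0.079 and put gamma at 0.52 and alpha, with 4 bins, at 0.76. With the wider rows H3.3WT over H3.1WT was -1.04. Against the H3.3-poorer bins of chromosome 18, an alternative added after seeing the data, the window was at -0.17 for H3.3K36M over H3.3WT. The window minus its flanks was 0.055 with flanks of 0.5 Mb and 0.26 with 2 Mb for H3.3K36M over H3.3WT, 0.058 with 2 Mb for H3.1K36M over H3.1WT, and -1.19 and -1.01 with 0.5 Mb for H3.3 over H3.1 in WT and K36M lines. Of the 2 peaks, 1 had most of its length inside the window. In H3.3, bins past 2-fold in the K36M line went from 7 to 9 with 0.01 RPM added and to 0 with 1 RPM added, with the signal filter and with the chromosome median subtracted. Bins lower in H3.3WT than in H3.1WT went from 44 to 7 with 1 RPM added, 0 with the signal filter, 2 with the chromosome median subtracted and 8 after scaling. Bins lower in H3.3K36M than in H3.1K36M went from 4 to 7 with 0.01 RPM added and to 0 with 1 RPM, the signal filter, scaling and the chromosome median subtracted. By medians the order alpha, beta, gamma held with 2 bins trimmed or added at each edge. At a median of 76 reads per bin in H3.3WT, single bins carry wide intervals.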
